A study of Mus musculus with 18 samples.

Results

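The knockout effect on the low polysome over the monosome was measured in mouse V6.5 embryonic stem cells (ESCs) that lack DDX6. It is the change, from wild-type (WT) to Ddx6 knockout (KO) cells, in how an mRNA divides between single ribosomes and light polysomes: the log2 ratio of low polysome to monosome in KO cells minus the same ratio in WT cells. The comparison used 12 of the 18 libraries of the series and 12705 of the 51467 genes in the count table, those with a level of at least 3 CPM (a count scaled to its library's total) in 3 or more libraries. In this text a gene is called raised or lowered where this interaction had a limma-voom adjusted p under 0.05, across all genes tested. The study asked how loss of DDX6 changes translation.

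Each sucrose gradient gave a monosome fraction, a low polysome fraction of 2 to 4 ribosomes and a high polysome fraction of 4 or more, with 3 gradients for each genotype. WT and KO cells were all grown in Knockout DMEM with 15% serum, LIF and 2i (PD0325901 and CHIR99021), and all received 100 ug/ml cycloheximide for 2 min. The KO cells were CRISPR lines: gradient 1 came from clone 1, and gradients 2 and 3 came from clone 2, so each line is 1 clone and clone 1 had a single gradient. Libraries held 3′ ends of transcripts, and each value is a share of its own library, so the amount of RNA in a fraction was not measured.

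DDX6 is a DEAD-box helicase of processing bodies (P-bodies) that binds decapping and deadenylation factors and takes part in translational repression. An mRNA with more ribosomes on it sediments further, so a shift from the monosome into light polysomes means more ribosomes on the molecules that are engaged, while a short coding sequence has room for few ribosomes and leaves many of its copies in light fractions. Messages of the translation machinery with a terminal oligopyrimidine (TOP) tract at the 5′ end are known to move between monosomes or free particles and polysomes as a group.

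Ddx6 itself (chromosome 9, 44604892 to 44640731, GRCm38) was at 143, 155 and 159.8 CPM in the 3 WT monosome libraries and at 57.3, 26.6 and 17.5 CPM in the 3 KO monosome libraries. In the low polysome it was at 159.5, 193 and 212 CPM in WT and at 82.4, 20.65 and 17.6 CPM in KO. Every KO library was below every WT library of its fraction, and clone 1, the first value of each KO trio, kept the most Ddx6 reads. The change was -2.35 ± 0.48 (SE) on the log2 scale in the monosome (limma-voom adjusted p = 6.9e-04) and -2.62 ± 0.47 in the low polysome (limma-voom adjusted p = 1.2e-04).

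The libraries held 2543617 to 11474550 gene counts, and the 3 WT monosome libraries were the shallowest of the 18, at 2543617, 4338977 and 4894677. All 12 ESC markers (Pou5f1, Sox2, Nanog and others) passed the filter and summed to 3432 to 4686 CPM in the WT monosome and low polysome libraries and to 4698 to 5782 CPM in the KO ones, while 12 feeder fibroblast markers summed to 23.7 to 36.8 and 14.6 to 23.5 CPM, with Col3a1 at 0. Primitive endoderm markers (11) summed to 5.99 to 11.96 CPM in WT and 11.9 to 20.3 CPM in KO, primed epiblast markers (8, Fgf5 at 0) to 105.5 to 138 and 36.2 to 51.0 CPM, and early neural and mesoderm markers (11) to 70.6 to 104 and 61.1 to 82.6 CPM. There were 3 libraries that stood apart from the others of their groups. Of 9020 genes with a mean of at least 10 CPM, 285 were more than 2-fold below both other gradients in the third WT low polysome library and 150 in the second KO low polysome library, with 72 in the third KO high polysome library, against 0 to 32 in each of the other 15. Cox7c, a small subunit of cytochrome c oxidase, was at 233, 189 and 26.4 CPM in the WT low polysome and at 180.3, 13.6 and 114 CPM in the KO low polysome. As 1 library of each genotype was affected in the low polysome, the counts below are from all libraries, and the count without these 3 is added where it differs by over 1.5 times or bears on a comparison.

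Of the 12705 genes, 294 were raised (2.31%) and 304 were lowered (2.39%). Without the 3 libraries the calls were 314 raised (2.47%) and 724 lowered (5.7%): 228 of the 294 raised and 295 of the 304 lowered genes kept their call, and all 598 kept their sign. The median change over all genes was 0.02 on the log2 scale, with a median SE of 0.29. Genes called by more than 1 log2 unit numbered 108 raised and 58 lowered. The calls rested on few gradients. Leaving out 1 gradient at a time gave 9 to 483 raised and 5 to 335 lowered genes, the fewest when the first WT gradient was dropped and the most when clone 1 was dropped. Dropping the third KO gradient left 21 and 6, the second WT gradient 49 and 36, the second KO gradient 128 and 208, and the third WT gradient 168 and 234. With clone 1 as the only KO gradient, limma-voom made 0 calls, with 1503 genes at an unadjusted p under 0.05, against 2635 in the fit of all gradients. In clone 1 all 294 raised genes were nevertheless above 0 and all 304 lowered genes were below 0, though these values share the WT gradients and clone 1 itself with the calls.

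A higher ratio can come from fewer reads in the monosome, more in the low polysome, or both. Within the monosome 2357 genes were higher in KO than in WT (18.6%) and 2548 were lower (20.1%), and within the low polysome 2975 were higher (23.4%) and 3090 lower (24.3%). Among the raised genes, 32 were both lower in the monosome and higher in the low polysome, 108 were lower in the monosome without a call upward in the low polysome, and 154 were higher in the low polysome without a call downward in the monosome. Of the lowered genes, 33 were higher in the monosome and lower in the low polysome, 105 were higher in the monosome alone in this sense, and 166 were lower in the low polysome alone. The interaction is made of these same changes, so the split describes the calls and does not support them.

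**Figure D1:**
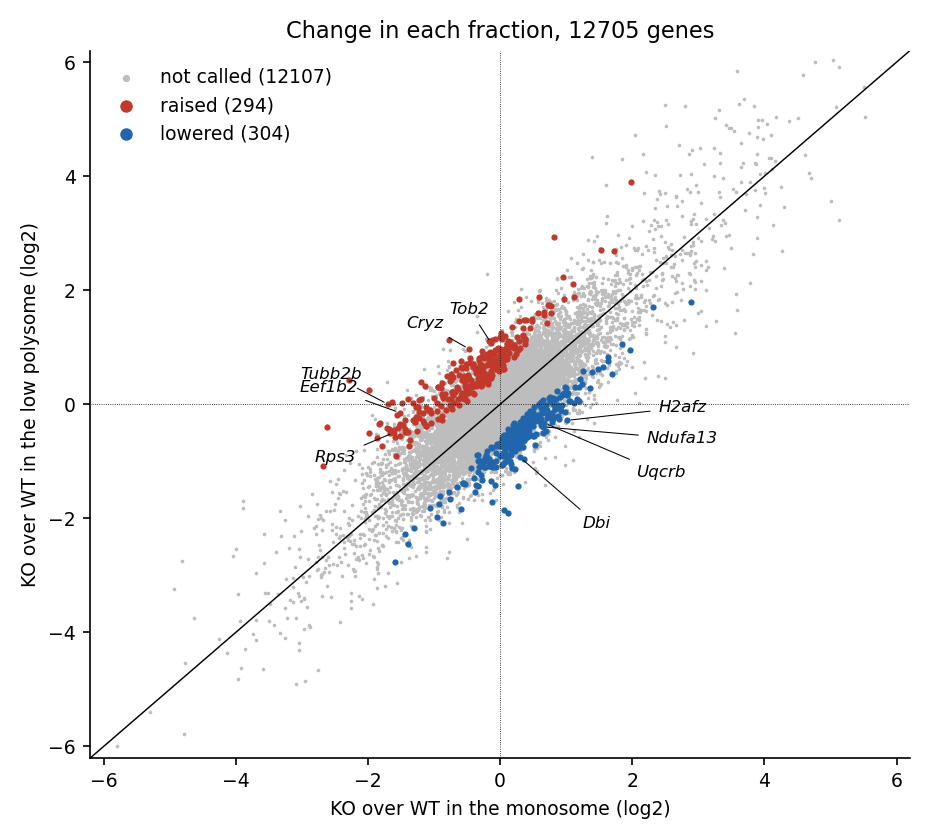
Each point is a gene, with its KO over WT change in the monosome on the x axis and in the low polysome on the y axis (log2, n = 3 gradients per genotype); red points are the 294 raised and blue points the 304 lowered genes. Most genes lie along the diagonal of equal change, raised genes lie above it and lowered genes below it, and 1 gene is outside the axes.

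Tubulins, elongation factors and ribosomal protein genes led the raised genes. Tubb2b, a beta-tubulin (chromosome 13, 34126748 to 34130466), was at 103, 83.1 and 95.2 CPM in the WT monosome and at 44.7, 48.0 and 38.7 CPM in the WT low polysome. In KO cells it was at 26.2, 31.7 and 28.1 CPM in the monosome and at 31.1, 49.3 and 52.9 CPM in the low polysome. So the monosome libraries of the 2 genotypes did not overlap while their low polysome libraries did, and log2(low polysome / monosome) rose by 1.70 ± 0.25 (SE, limma-voom adjusted p = 0.0014). The other leading tubulins, Tubb5 and Tuba1b, rose by 1.505 ± 0.284 (limma-voom adjusted p = 0.0078) and 1.49 ± 0.23 (limma-voom adjusted p = 0.0019), with monosome changes of -1.49 and -1.39 log2 units. KO gradients spread widely for Tubb5, whose low polysome values were 783, 1653 and 1137 CPM against 1152, 1049 and 1174 CPM in WT. Of 14 tubulin genes tested, 6 were raised (Tuba4a, Tubb2a, Tubb2b, Tuba1b, Tuba1c and Tubb5), against 2.31% of all genes, and 0 were lowered. Of the 14, 12 had a positive change, with a median of 0.92. Tubb2a differed from Tubb2b in its levels: it was higher in KO in both fractions, by 0.95 (monosome) and 2.24 (low polysome).

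Of the raised genes, 9 kept their call whichever gradient was left out: Tubb2b, Eef1b2, Eif3f, Polr1c, Rpl13a, Tob2, Rplp0, Rps19 and Rps3. Eef1b2, the exchange factor that recharges elongation factor 1 (chromosome 1, 63176825 to 63180486), had the lowest adjusted p of these. It was at 5153, 4935 and 4858 CPM in the WT monosome and at 1829, 1604 and 1799 CPM in the KO monosome, against 949, 1018 and 994 CPM in the WT low polysome and 869, 929 and 876 CPM in the KO low polysome. Its log2 ratio rose by 1.37 ± 0.14 (limma-voom adjusted p = 2.5e-05). The monosome therefore carried the change, with a change of -1.52 ± 0.10, and the low polysome level changed by -0.15 with a limma-voom adjusted p = 0.21. Eef1g, another subunit of the same complex, was at 939.9, 899 and 949.7 CPM in the WT monosome and at 368, 275 and 313 CPM in the KO monosome, and its ratio rose by 1.37 ± 0.22 (limma-voom adjusted p = 0.0019). With Eef1d, 3 of the 4 eEF1 subunits were raised, and the per-gradient median of the 4 was -2.10, -2.11 and -1.60 in WT and -1.09, -0.49 and -0.87 in KO.

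Ribosomal protein genes called by the interaction were all raised. Over all 78 tested, called or not, the median change was smaller than over the 4 eEF1 subunits (0.36 against 1.17). Rps3, a small-subunit protein (chromosome 7, 99477896 to 99483738), was at 11950, 11200 and 13450 CPM in the WT monosome and 4222, 3616 and 4144 CPM in the KO monosome, and at 3049, 3252 and 3295 CPM against 2091, 2323 and 2390 CPM in the low polysome. Both fractions fell, the monosome by more, and the ratio rose by 1.11 ± 0.15 (limma-voom adjusted p = 6.8e-04). Rplp0, a protein of the ribosomal stalk, showed log2 ratios of -2.25, -2.17 and -2.31 in WT and of -1.40, -0.77 and -1.01 in KO, a rise of 1.19 ± 0.18 (limma-voom adjusted p = 0.0019). Rpl13a rose by 1.25 ± 0.15 (limma-voom adjusted p = 4.3e-04) and Rps19 by 1.16 ± 0.15 (limma-voom adjusted p = 6.8e-04). Rpl36 had the largest rise of them, 1.46 ± 0.35 (limma-voom adjusted p = 0.025), at a low level of 8.41 to 35.2 CPM, and kept its call in 2 of the 6 leave-one-out fits. Across the cytosolic ribosomal proteins, 12 of 78 were raised (among them Rplp0, Rpl4, Rpl13a, Rps3, Rps19 and Rack1), against 2.31% of all genes, and 0 were lowered. Of the 78, 64 had a positive change, and the median change was 0.36. Without the 3 libraries 21 were raised and 1 lowered. In the monosome 70 of the 78 were lower in KO, with a median of -1.05, and in the low polysome 49 were lower and 0 higher, with a median of -0.57. Many ribosomal protein genes have near-identical processed pseudogenes, and only uniquely mapped reads were counted, so part of their signal may stand under other names: 13 of 247 processed pseudogenes were raised and 2 lowered (4 lowered without the 3 libraries), and Rps10-ps1, Rpl3-ps1 and Rpl7-ps7, at 1.68, 1.49 and 1.47, were among the 12 with the largest rise. Their values are uncertain for that reason.

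The promoter sequences of RefSeq (GRCm38.p6) were searched for the pyrimidine run that TOP mRNAs carry at their start, here a C followed by 7 or more bases that are each C or T, on the sense strand from 30 bases before to 50 bases after the annotated start. They are shown for 4 raised genes of the translation machinery in which the run begins close to that start, picked after the sequences were read, with the run in capitals, 30 bases each and 5′ to 3′.
Rpl13a (chr7:45128722-45128751, minus strand): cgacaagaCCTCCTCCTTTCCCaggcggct
Rack1 (chr11:48800347-48800376, plus strand): gaggccgCTCTTTCTTTTTCTCCacagggt
Eif3f (chr7:108934404-108934433, plus strand): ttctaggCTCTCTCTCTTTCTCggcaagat
Rps9 (chr7:3704025-3704054, plus strand): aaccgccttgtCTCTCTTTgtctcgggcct
Of the 57 ribosomal protein genes with a promoter entry, 46 held such a run (80.7%), against 2496 of the 9595 genes tested that matched (26.01%). Among the raised genes 62 of 216 held it (28.7%), and among the lowered genes 40 of 248 (16.1%). Leaving the ribosomal proteins out, it was found in 55 of 207 raised genes (26.6%), close to the share over all genes. A RefSeq start need not be the start used in these cells, and Rplp0, Rps3 and Eef1b2 held no such run in this window. In Rpl4 and Rps19 the run began 26 and 41 bases after the annotated start.

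Initiation factors were raised chiefly through eIF3, the scaffold that brings the small subunit to the mRNA. Of 12 eIF3 subunits, 6 were raised and 0 lowered (Eif3f, Eif3g, Eif3h, Eif3i, Eif3k and Eif3l), 11 had a positive change, and the median change was 0.76. Per-gradient medians of the 12 were -0.80, -0.90 and -0.60 in WT and -0.18, 0.15 and -0.11 in KO. Eif3f, at 769.7, 703 and 785 CPM in the WT monosome and 348, 262 and 300.1 CPM in the KO monosome, rose by 1.34 ± 0.17 (limma-voom adjusted p = 5.0e-04). Outside eIF3, Eif2b2, Eif4b and the helicase Eif4a1 were also raised. Of all 43 initiation factors tested, 9 were raised (20.9%, against 2.31% of all genes) and Eif5a alone was lowered, by -0.63 ± 0.17 (limma-voom adjusted p = 0.042). Among 23 elongation factors and other mRNAs listed as TOP messages, 10 were raised (43.5%) and 1 was lowered, Ptma, the short prothymosin alpha, with a median change of 0.68. Of these 10, Eif3f, Eif3h, Eif4b and Cct4 are also counted among the initiation factors or chaperonin subunits, so the lists are not separate. This list, like the others here, was drawn up with earlier results of these data known.

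Aminoacyl-tRNA synthetases, which charge tRNAs, had 4 of 20 raised (Sars, Qars, Tars and Nars) and 0 lowered, and 19 of the 20 had a positive change. Qars rose most of the synthetases, by 1.29 ± 0.22 (limma-voom adjusted p = 0.0028). The CCT chaperonin, which folds actin and tubulin, had 3 of 8 subunits raised (37.5%: Cct2, Cct4 and Cct7), and all 8 had a positive change of 0.48 to 0.88. All messages of 1500 to 2000 nt, the range of their median coding length (1635 nt), had 3.55% raised and a median change of 0.18. Hspd1, the mitochondrial chaperonin, was at 307, 226 and 253 CPM in the WT monosome and at 113, 174 and 135 CPM in the KO monosome, and its ratio rose by 1.19 ± 0.25 (limma-voom adjusted p = 0.013). Of 19 glycolysis genes, 5 were raised (26.3%: the glucose transporters Slc2a1 and Slc2a3, Gpi1, Aldoa and Eno3) and 0 lowered. Their median change was 0.63 at a median coding length of 1305 nt. All messages of 1000 to 1500 nt had 4.17% raised and a median change of 0.13. Whether these 3 families differ from other messages of their length was not tested. Slc2a1 and Slc2a3 are also counted among the solute carriers, so these 2 lists are not separate. Solute carriers had 10 of 218 raised (4.59%) and 0 lowered (2 lowered without the 3 libraries), among them the cationic amino acid transporters Slc7a1 and Slc7a3. Their median coding length was 1516 nt, and their raised share was near that of all messages of 1000 to 1500 nt (4.17%) and 1500 to 2000 nt (3.55%). Slc7a1 had tightly grouped log2 ratios of 0.09, 0.06 and 0.02 in WT and of 0.83, 0.87 and 0.82 in KO, a rise of 0.79 ± 0.15 (limma-voom adjusted p = 0.0070).

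Some raised genes moved by opposite changes in the 2 fractions, which is the plainest form of a shift from the monosome into light polysomes. The 6 largest of these 32 were Cryz, Cdk9, Akap2, Rtcb, Pdha1 and Cstf1. Cryz, a quinone oxidoreductase (chromosome 3, 154596711 to 154623182), was at 96.4, 90.03 and 94.1 CPM in the WT monosome and 55.3, 79.5 and 69.5 CPM in the KO monosome, while its low polysome values were 27.1, 25.8 and 29.2 CPM in WT and 44.5, 58.3 and 59.04 CPM in KO. Neither fraction overlapped between genotypes, and its ratio rose by 1.44 ± 0.22 (limma-voom adjusted p = 0.0019). Pdha1, the E1 subunit of pyruvate dehydrogenase, changed by -0.58 in the monosome and by 0.64 in the low polysome. Rtcb, the tRNA-splicing ligase, and Cstf1, a polyadenylation factor, rose by 1.27 ± 0.21 (limma-voom adjusted p = 0.0025) and 1.20 ± 0.18 (limma-voom adjusted p = 0.0018) in the ratio. Cdk9, the kinase of elongating RNA polymerase II, was lowly expressed, at 6.07 to 30.1 CPM over the 12 libraries, and kept its call in 2 of the 6 leave-one-out fits. Tob2, an adaptor of the CCR4-NOT deadenylase, did not change detectably in the monosome (47.2, 54.6 and 53.05 CPM in WT and 45.0, 49.0 and 48.3 CPM in KO) and rose in the low polysome from 34.2, 30.4 and 33.1 CPM to 64.5, 70.7 and 70.3 CPM. Aldh5a1, a succinate semialdehyde dehydrogenase, likewise rose in the low polysome, from 18.1, 20.8 and 19.3 CPM to 44.6, 98.8 and 76.6 CPM, and in the ratio by 1.55 ± 0.35 (limma-voom adjusted p = 0.017).

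**Figure D2:**
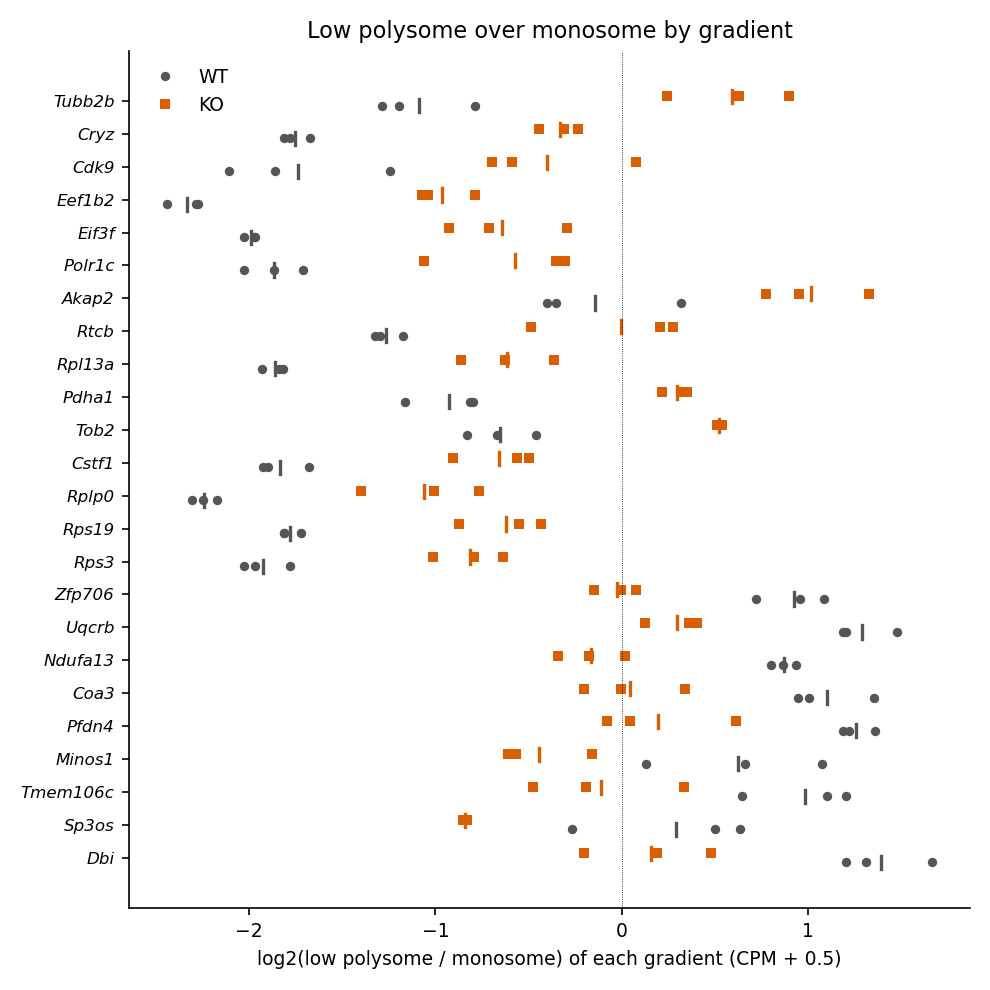
Log2 ratio of low polysome to monosome (x axis, CPM plus 0.5) in each WT gradient (grey circles) and KO gradient (orange squares), with a tick at the mean of 3, for the genes that kept their call in every leave-one-out fit and the genes with opposite calls in the 2 fractions. In the upper 15 genes every KO gradient lies to the right of every WT gradient, and in the lower 9 every KO gradient lies to the left. The genes were picked for their call, and such separation held for all 294 raised and 301 of the 304 lowered genes. It therefore describes the selection and is no separate support.

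Lowered genes were mainly short messages. Dbi, the acyl-CoA binding protein (chromosome 1, 120113280 to 120121078, coding length 264 nt), was at 648, 710.1 and 825 CPM in the WT monosome and rose in the WT low polysome to 2056, 1763 and 1898 CPM. In KO cells it was at 932, 819 and 940.6 CPM in the monosome and at 1064, 1141 and 818 CPM in the low polysome. The low polysome libraries of the genotypes were well apart, and the log2 ratio fell by 1.24 ± 0.20 (limma-voom adjusted p = 0.0021). Along with Ndufa13, Uqcrb and Zfp706, Dbi kept its call whichever gradient was left out. Ndufa13, a complex I subunit (chromosome 8, 69894180 to 69902558), went in opposite directions in the 2 fractions: 635, 595 and 620.1 CPM in the WT monosome against 996, 913 and 979.5 CPM in KO, and 1217, 1086 and 1082 CPM in the WT low polysome against 882, 925 and 774 CPM in KO. Its ratio fell by 1.04 ± 0.16 (limma-voom adjusted p = 0.0019). Uqcrb, a complex III subunit, had log2 ratios of 1.48, 1.19 and 1.21 in WT and of 0.41, 0.36 and 0.12 in KO, with a fall of 0.995 ± 0.146 (limma-voom adjusted p = 0.0014).

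Among the genes with the largest fall were Tmed2, a p24 cargo receptor of the early secretory pathway, at -1.36 ± 0.35 (limma-voom adjusted p = 0.034), Ndufb4, at -1.31 ± 0.32 (limma-voom adjusted p = 0.025), and H2afz, the histone variant H2A.Z, at -1.29 ± 0.31 (limma-voom adjusted p = 0.026). H2afz was at 27.4, 44.7 and 25.2 CPM in the WT monosome and 73.3, 57.7 and 61.5 CPM in the KO monosome, whereas its low polysome values overlapped, at 109, 100.6 and 87.3 CPM in WT and 103.7, 85.6 and 61.0 CPM in KO. Nop10, a box H/ACA small nucleolar RNP protein, fell by 1.21 ± 0.27 (limma-voom adjusted p = 0.017), Rbp4, retinol binding protein, by 1.22 ± 0.29 (limma-voom adjusted p = 0.023), and Gng2, a G protein gamma subunit, by 1.19 ± 0.28 (limma-voom adjusted p = 0.025). Gng2 and Rbp4 were lower in KO in both fractions, Gng2 at -1.59 (monosome) and -2.77 (low polysome). Reep5, an endoplasmic reticulum shaping protein, was instead higher in both, by 1.69 and 0.53. Oaz1, the ornithine decarboxylase antizyme, was called at a limma-voom adjusted p = 0.048 but not with edgeR, where the adjusted p = 0.063. It lost its call whichever gradient was left out (limma-voom adjusted p = 0.051 to 0.170). Tmed2, Ndufb4, H2afz, Nop10, Rbp4 and Gng2 lost their calls without the first WT gradient (limma-voom adjusted p = 0.093 to 0.130). Without the third KO gradient they lost them too (limma-voom adjusted p = 0.132 to 0.207). The 12 genes with the largest fall also held 2310009A05Rik, 2010204K13Rik and the antisense transcript Sp3os. Of the 33 lowered genes with opposite changes in the 2 fractions, the 6 largest were Sp3os, Tmem106c, Minos1, Pfdn4, Coa3 and Ndufa13. Minos1, a small protein of the mitochondrial inner membrane contact site, Coa3, a cytochrome oxidase assembly factor, and Pfdn4, a prefoldin subunit, fell by 1.07 ± 0.28, 1.05 ± 0.19 and 1.06 ± 0.21.

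Nuclear-encoded subunits of the respiratory chain divided by length. Of 79 tested, 28 were lowered (35.4%) and 6 were raised (7.59%), and without the 3 libraries that stood apart 45 were lowered and 5 raised. Their median change was -0.64 at a median coding length of 420 nt. All messages of up to 500 nt had a median change of -0.56, with 16.8% lowered, so much of this median is shared by short messages in general. The 6 raised subunits, among them Sdha, Uqcrc2, Atp5a1 and Atp5b, had coding lengths of 1068 to 1995 nt, and the 28 lowered ones had coding lengths of 171 to 561 nt. Of the 11 subunits with over 1000 nt, 6 were raised, 0 lowered and 9 had a positive change, while of the 67 with up to 1000 nt, 0 were raised, 28 lowered and 3 had a positive change. Atp5a1, the alpha subunit of ATP synthase, was at 704, 632 and 571 CPM in the WT monosome and 396, 497 and 447 CPM in the KO monosome, with a low polysome of 303, 339 and 256 CPM in WT and 404, 471 and 518 CPM in KO. Neither fraction overlapped, and its ratio rose by 1.15 ± 0.19 (limma-voom adjusted p = 0.0030). Cox6a1, a cytochrome oxidase subunit, had the opposite pattern, at 1748, 1920 and 1873 CPM in the WT monosome and 2281, 2180 and 2369 CPM in the KO monosome, and at 2746, 2242 and 2212 CPM against 1619, 1548 and 1255 CPM in the low polysome. Its ratio fell by 1.01 ± 0.17 (limma-voom adjusted p = 0.0025). By complex, lowered subunits made up 15 of 36 in complex I, 0 of 4 in complex II, 3 of 9 in complex III, 7 of 12 in complex IV and 3 of 17 in complex V. Without the 3 libraries these were 23, 2, 4, 9 and 7, so the order of the complexes depended on them. Uqcrc2 and Atp5b lost their call without the 3 libraries (limma-voom adjusted p = 0.058 and 0.10).

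**Figure D3:**
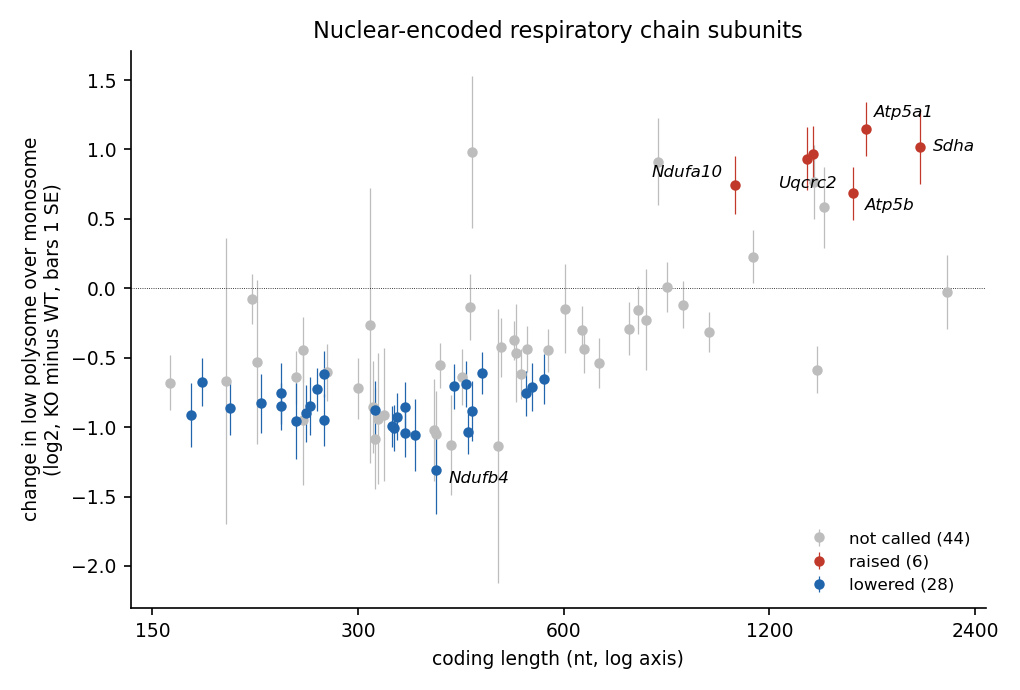
Change in log2(low polysome / monosome) from WT to KO (y axis, bars 1 SE, n = 3 gradients per genotype) against coding length (x axis, log scale) for 78 respiratory chain subunits with a coding length. The 6 raised subunits (red) lie at 1068 nt or more and the 28 lowered ones (blue) at 561 nt or less.

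Other short mitochondrial messages were lowered too. Of 77 mitochondrial ribosomal proteins 16 were lowered and 2 raised (Mrpl19 and Mrpl24), with a median change of -0.36 and a median coding length of 591 nt, and without the 3 libraries 23 were lowered and 3 raised. Mrpl42 fell by 0.98 ± 0.17 (limma-voom adjusted p = 0.0039) and Mrps12 by 0.91 ± 0.18 (limma-voom adjusted p = 0.010). Mitochondrial import had 5 of 23 lowered (Timm10, Timm10b, Timm17a, Timm17b and Timm22) and 0 raised, and 8 and 1 without the 3 libraries. These are 20.8% of the mitochondrial ribosomal proteins and 21.7% of the import genes. All messages of 500 to 1000 nt, the range of both median coding lengths, had 3.10% lowered and a median change of -0.14. The import median of 516 nt is near the lower end of this range. Messages of up to 500 nt had 16.8% lowered and a median change of -0.56. Without the 3 libraries, 224 of 2806 messages of 500 to 1000 nt and 380 of 1055 shorter ones were lowered. How much of the 2 shares goes with length was not tested. Cytosolic ribosomal proteins had medians of 477 nt for the large and 448.5 nt for the small subunit. They are no longer than the mitochondrial ribosomal proteins and import genes, and those called moved the other way. Numbered transmembrane proteins had 9 of 168 lowered (5.36%) and 0 raised, and 23 lowered without the 3 libraries. Of 42 histone genes only H2afz was lowered, a share like that over all genes, but 4 of the 42 had a positive change, the median was -0.61, and 6 were lowered without the 3 libraries. Histone genes had a median coding length of 393 nt, and their median change was close to the -0.56 of all messages of up to 500 nt. Selenoproteins and thiol antioxidants had 2 of 20 (10.0%, Sephs2 and Msrb1) and 2 of 19 (10.5%, Glrx and Glrx2) lowered, and 5 of each without the 3 libraries. Over all genes 2.39% were lowered, and 5.7% without the 3 libraries. These are few genes, and whether their shares differ from those over all genes was not tested. The proteasome, at a median coding length of 834 nt, had Psma7 alone of 37 lowered (2.70%), near the 2.39% over all genes and the 3.10% among messages of 500 to 1000 nt.

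**Figure D4:**
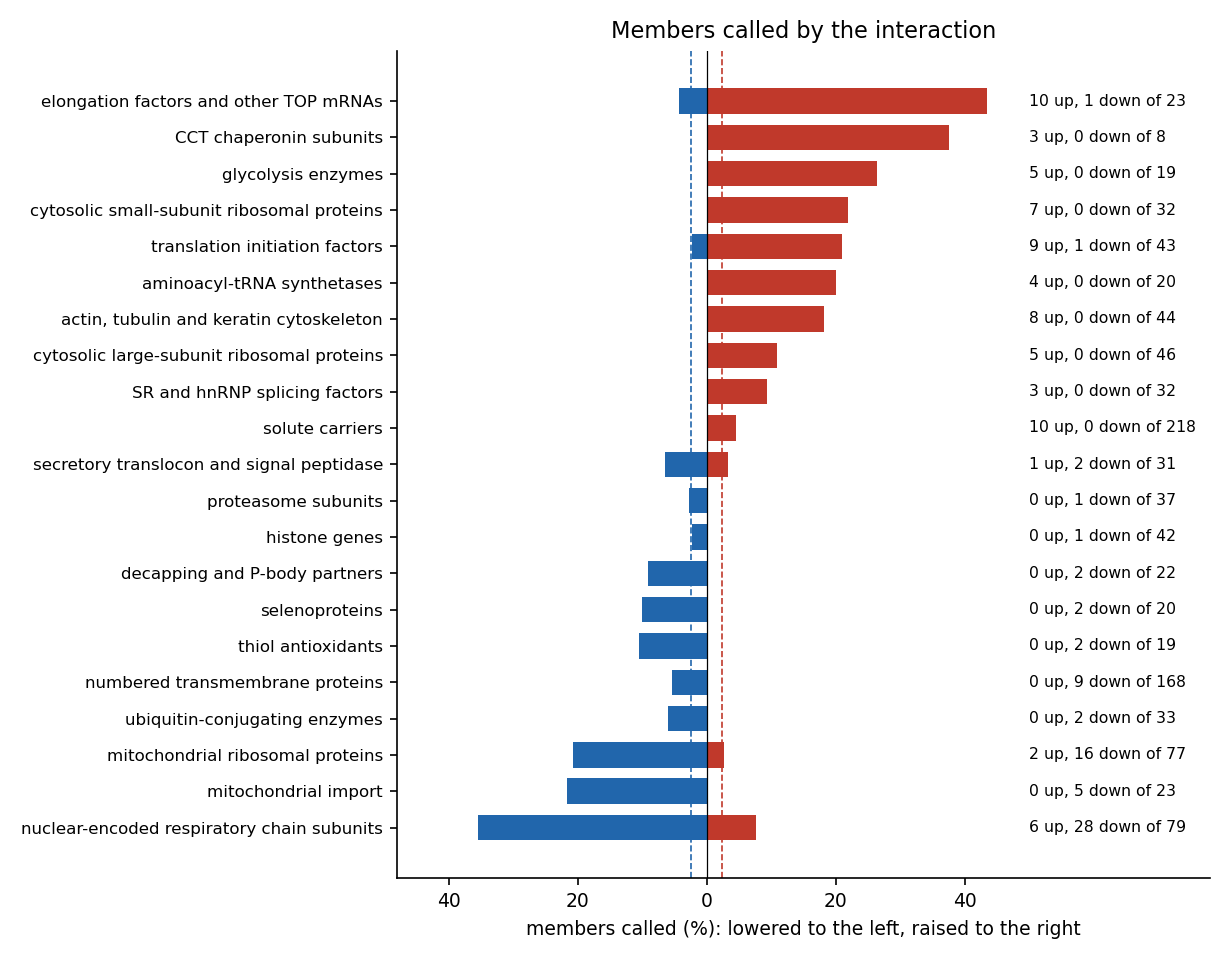
Share of each gene list that was raised (red, to the right) or lowered (blue, to the left) by the interaction, in percent of the members tested, with the counts at the right and dashed lines at the shares over all genes, 2.31% raised and 2.39% lowered. Translation machinery lies above the dashed line on the raised side, and respiratory chain, mitochondrial import and mitochondrial ribosome lie beyond it on the lowered side.

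Coding length went with the direction of change over the whole table. Messages of up to 500 nt had 177 of 1055 lowered (16.8%) and 4 raised, with a median change of -0.56, and those of 500 to 1000 nt had 87 of 2806 lowered and 46 raised, with a median of -0.14. From 1000 to 1500 nt, 114 of 2731 were raised (4.17%) and 21 lowered, at a median of 0.13. The medians were 0.18 for 1500 to 2000 nt, with 64 of 1803 raised, 0.16 for 2000 to 3000 nt, with 40 of 1807 raised, and 0.03 over 3000 nt, with 10 of 1571 raised. Without the 3 libraries, 380 messages of up to 500 nt were lowered and 8 raised, and 224 of 500 to 1000 nt and 58 of 1000 to 1500 nt were lowered. The shortest messages had a median log2(low polysome / monosome) of 0.47, 0.38 and 0.16 in the WT gradients and of -0.12, -0.15 and -0.25 in the KO gradients, so they were richer in the low polysome than in the monosome in each WT gradient and poorer in each KO gradient. In the range of 1500 to 2000 nt the medians were -0.20 in all 3 WT gradients and -0.07, 0.01 and 0.00 in KO. Over 3000 nt the genotypes overlapped. Lowered genes had a median coding length of 444 nt, raised genes of 1353 nt and all protein-coding genes tested of 1356 nt, and across 11773 genes Spearman's rho of coding length with the change was 0.30. Genes of one library share its depth and size range, so this correlation is a description. The 3′ UTR was also shorter in the lowered genes, with a median of 478 nt against 921 nt in the raised and 930.0 nt in all, while GC content of the coding sequence was 53.3%, 54.0% and 53.4%.

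**Figure D5:**
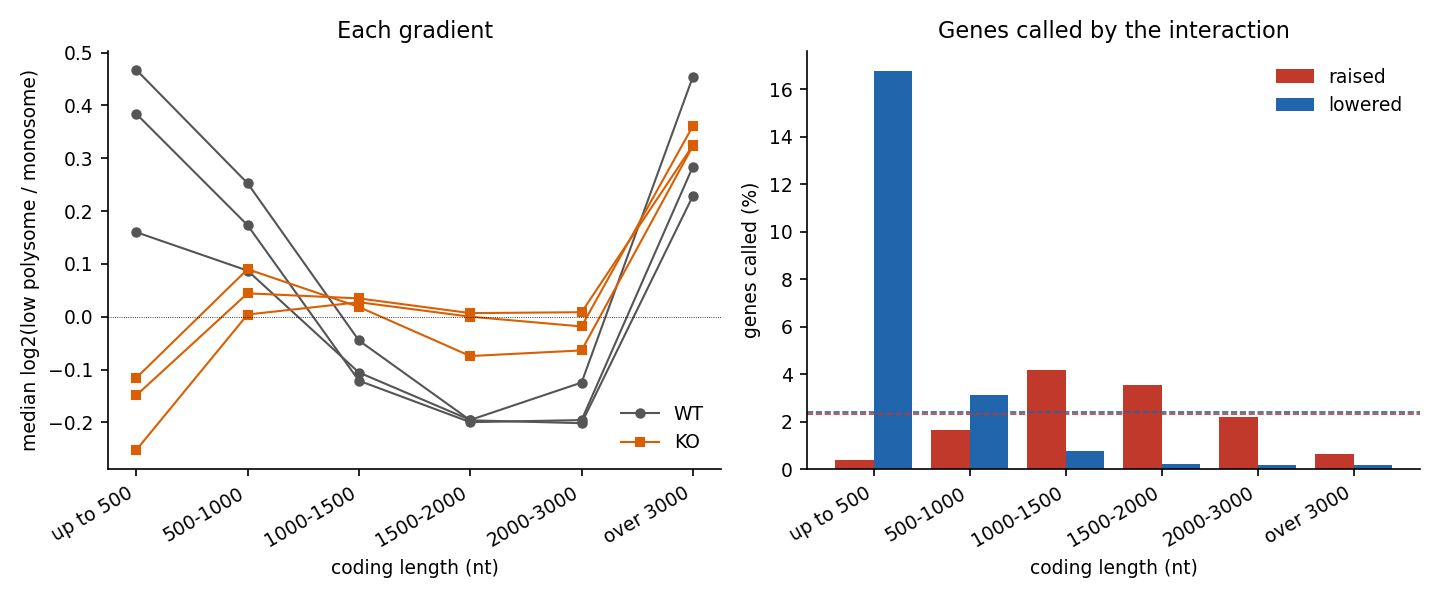
Left, the median log2 ratio of low polysome to monosome of genes in 6 ranges of coding length (x axis, nt) in each WT (grey) and KO (orange) gradient. Right, the percent of genes in each range that was raised (red) or lowered (blue), with dashed lines at the shares over all genes; up to 500 nt the WT gradients lie at 0.16 to 0.47, the KO gradients at -0.12 to -0.25, and 16.8% of genes were lowered.

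Of 8 pluripotency genes, Tfcp2l1 and Esrrb were raised (25%) and 0 lowered, with a median change of 0.33. The raised share was 2.31% over all genes and 4.17% among messages of 1000 to 1500 nt. These 8 are few genes, and their share was not tested against the others. Their per-gradient medians were -0.07, -0.08 and -0.04 in WT and 0.21, 0.42 and 0.26 in KO, which did not overlap, and 1 was raised without the 3 libraries. Such separation was not particular to them. The medians of all 2731 messages of 1000 to 1500 nt did not overlap either, at -0.05, -0.12 and -0.11 in WT and 0.02, 0.03 and 0.03 in KO, a smaller difference. Tfcp2l1 was at 343, 384 and 309.8 CPM in the WT monosome and 168, 191 and 180.5 CPM in the KO monosome. The KO values were all below the WT ones there, and its ratio rose by 0.68 ± 0.17 (limma-voom adjusted p = 0.028). Esrrb rose by 0.54 ± 0.15 (limma-voom adjusted p = 0.042), a call that was lost without the 3 libraries (adjusted p = 0.067). The others did not pass: the change was 0.44 for Sox2, 0.36 for Nanog, 0.30 for Sall4, 0.16 for Zfp42, -0.03 for Klf4 and -0.20 for Pou5f1. Among 26 stem cell markers of a second list, Tbx3 and Utf1 were raised and Dppa3, a maternal factor of 453 nt, was lowered (2 lowered without the 3 libraries). Dppa3 did not change detectably in the monosome (19.4, 15.97 and 20.4 CPM in WT, 21.2, 16.98 and 18.8 CPM in KO), and in the low polysome it fell from 46.6, 43.3 and 38.7 CPM to 23.7, 19.3 and 19.2 CPM. Atf4, the transcription factor whose own translation rises under stress through upstream reading frames, was at 1568, 1565 and 1628 CPM in the WT low polysome and 529, 584 and 409.5 CPM in the KO low polysome. It was lower in both fractions, and its ratio fell by 0.91 ± 0.22 (limma-voom adjusted p = 0.025).

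Partners of DDX6 and targets of the ESC-specific cell cycle regulating (ESCC) miRNAs were looked at for their link to the helicase. Of 22 decapping and P-body genes 2 were lowered, Lsm4 by 0.80 ± 0.17 (limma-voom adjusted p = 0.016) and Lsm2 by 0.64 ± 0.17 (limma-voom adjusted p = 0.035), and 0 were raised. That is 9.09% lowered, against 2.39% of all genes, a difference in a short list that was not tested. Without the 3 libraries 4 were lowered, against 5.7% of all genes. Lsm4 and Lsm2 belong to the LSM ring, the small proteins that bind the 3′ end of deadenylated mRNA. All 7 of Lsm1 to Lsm7 had a negative change, at a median of -0.76. Short messages in general went the same way: of those of up to 500 nt, 16.8% were lowered, at a median of -0.56. Whether the ring differs from other short messages was not tested. Lsm1, Lsm3, Lsm5, Lsm6 and Lsm7 did not pass, at -0.76, -0.30, -0.90, -0.65 and -0.98, and Lsm1 and Lsm6 did without the 3 libraries (limma-voom adjusted p = 0.013 and 0.017). Among the other partners, Edc3 was at 0.26, Lsm14a at -0.33, Lsm14b at -0.17 and Pnrc2 at -0.66, and none of the rest of the list passed. In 9 listed ESCC miRNA targets limma-voom made 0 calls, with 0 at an unadjusted p under 0.05, too few genes to tell this from the share over all genes. They are only some of the miRNAs' targets, and the changes ran from -0.51 (Lats2) to 0.40, with -0.48 for Mbd2, 0.23 for Cdkn1a, 0.24 for Casp2 and 0.28 for Tgfbr2. Tgfbr2 was higher in KO in both fractions, with monosome and low polysome changes of 2.89 and 3.17, so its level changed while its ratio did not pass.

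The high polysome of the same gradients, which shares the monosome libraries with this comparison, gave changes over the monosome of 1.495 ± 0.135 for Eef1b2, 1.32 ± 0.18 for Rplp0, 1.602 ± 0.237 for Tubb2b and 1.07 ± 0.16 for Tob2. For lowered genes they were -1.14 ± 0.15 for Uqcrb, -0.82 ± 0.16 for Ndufa13 and -1.08 ± 0.20 for Dbi. The low polysome values of these genes are given above, for Tob2 as CPM alone, and the 2 comparisons cannot be read as separate evidence.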

How the data were processed

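Polysome fractions of 3 WT and 3 Ddx6 KO gradients were profiled with QuantSeq 3′ FWD libraries. The authors trimmed reads with cutadapt 1.14, kept uniquely mapped reads from STAR 2.5.3a on mm10 and deposited raw strand-specific counts per gene from featureCounts 1.5.3 (Gencode M14). The 92 spike-in rows were dropped. Of 51467 gene IDs, 51274 matched Gencode M21 (GRCm38), which gave symbols, positions and coding lengths. Genes with at least 3 CPM in 3 of 18 libraries were scaled by TMM (edgeR 4.0.16) and fitted with limma-voom 3.58.1 (R 4.3.3), with 1 mean per genotype and fraction over all 18 libraries, without a gradient term, and with Benjamini-Hochberg adjustment. CPM in the text are TMM-scaled, and log2 ratios of single gradients used a pseudocount of 0.5 CPM. The fit was tested on simulated counts. Named genes were Ddx6, the 12 raised and 12 lowered genes with the largest change at a mean of at least 10 CPM and no overlap between genotypes, up to 10 per direction that kept the call in every leave-one-out fit, up to 6 per direction with opposite calls in the 2 fractions, called members of the 55 gene lists, and all members of 3 short lists. Members and lists were chosen with earlier results of these data known. The labels do not say that gradients came from separate cultures, so p-values measure the spread between these gradients, which may be technical. Alternatives were DESeq2 1.42.0, edgeR, limma-trend, other scalings and filters, 12 libraries only, equal depth, a gradient block, each gradient left out, clone 1 alone and, chosen after seeing the data, the 3 libraries left out.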

Additional observations from a re-analysis of the deposited data

Results flagged for a closer look

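Spike-in sequences, which no comparison used, held 28 counts in the first WT high polysome library, the lowest, and 169 counts in the third WT low polysome library, the highest. They were flagged because they are a signal outside the gene counts, and they were too few to scale the fractions. The library with the most spike-in counts was also the WT low polysome library that stood apart, and a relation between these facts was not tested.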

How the results depend on the processing

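Against 294 raised and 304 lowered genes, DESeq2 gave 546 and 527, a fit of the 12 libraries alone 162 and 125, equal depth 185 and 159, and a change of over 1 log2 unit 108 and 58. Library size alone gave 229 raised and 494 lowered, so that scaling moved the split towards lowered genes. Clone 1 alone gave 0 and 0. Leaving out the 3 libraries that stood apart, an alternative chosen after seeing the data, gave 314 and 724. Leaving out 1 gradient gave 9 to 483 raised and 5 to 335 lowered genes. A block for the gradient number gave 384 and 389, and 26 of the 598 calls were lost with it. Same-numbered monosome and low polysome libraries deviated together with r of -0.05 to 0.16 in WT and -0.03 to 0.21 in KO. The reported fit therefore did not use the numbers as pairs. For low and high polysome libraries of the same number, r was 0.26 to 0.35 in WT and 0.48 for KO number 1. KO low polysome library 2 went with KO high polysome library 3 (r = 0.56), not 2 (r = -0.12). KO low polysome library 3 had r of 0.17 with KO high polysome library 2 and -0.18 with 3. Whether KO high polysome numbers 2 and 3 are crossed was not tested. The block and the fits without KO gradient 2 or 3 rest on these numbers. Ratios of single gradients divide libraries of the same number and rest on that numbering. Within the monosome, 1006 genes were higher and 1087 lower by over 1 log2 unit, with 3929 lower without a filter and 1355 lower in clone 1 alone. Within the low polysome 1173 were higher and 1142 lower by over 1 log2 unit, and 1710 and 1534 in clone 1 alone. Uncalled values near 0 changed sign: Klf4 ran from -0.191 to 0.046 and Pou5f1 from -0.42 to 0.040 over the leave-one-out fits, with 0.02 for Klf4 without the third gradient of either genotype and 0.0086 without the 3 libraries, Pou5f1 was 0.18 in clone 1 alone, and Cdkn1a was -0.019 there. None of the 202 called genes that the naming rule picked changed sign under any alternative. They were picked for their call, and the alternatives reuse most of the same libraries, so a kept sign is weak support. Their calls were less stable: with 1 gradient left out, 27 (without clone 1) to 189 (without the first WT gradient) of the 202 lost their call. The WT monosome libraries are the shallowest and enter every WT ratio. The cause of these shifts was not tested.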
